A study of Mus musculus with 30 samples.

Results

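The genes described here are 40 listed genes of mitosis and the G2 to M transition, measured in mouse lung after 10 h, 2 d, 4 d or 6 d in 10% oxygen and in a group titled Norm. They were found on the arrays through the platform annotation: a probe set counted as a member where its gene symbol was exactly 1 of the listed names. 38 of the 40 genes had such a probe set, of 15965 genes named by at least 1 probe set with a single symbol, and Ccnb1 and Hmmr had none. The 38 genes had 70 probe sets, 43 on the A array, 13 on B and 14 on C. A probe set was tested where it lay above the floor of its array type on at least 2 arrays, the floor being the 40th percentile of all values of that type. 51 member probe sets of 35 genes met this, 34 on A and 17 on B and C, while Bub1, Ncapd2 and Ttk had probe sets but none that was tested. The list holds 5 roles, namely cyclins and their control of CDK1, mitotic kinases with the chromosomal passenger complex, the spindle checkpoint with the ubiquitin ligase APC/C, kinesins and other proteins of the spindle and of cytokinesis, and proteins of chromosome structure and the centromere.

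Cells enter mitosis when CDK1 bound to a B-type cyclin is activated by CDC25 phosphatases, and they leave it when APC/C marks the cyclin for destruction. Many of these genes are transcribed together late in the cell cycle, and in resting cells a repressor complex named DREAM holds them down through a promoter element called CHR, so their mRNA is commonly read as a marker of dividing cells. Most cells of adult lung rest, and low oxygen is known to set off division in the wall of pulmonary vessels.

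Total RNA of whole lung was hybridised to the Affymetrix MG-U74 version 2 set, whose A, B and C arrays carry different probe sets, so each sample met 3 arrays. Every group had 2 samples, lettered 1a and 1b, and the deposited value is a linear intensity per probe set and array. The 4 hypoxia groups were animals held in a chamber at 10% oxygen, and Norm was followed as a group because its titles say so, although its description speaks of a mild rejection and not of normal air. Strain, sex, age and any pooling are not in the labels, nor is it stated that 1a and 1b are different animals, so the p-values may reflect no more than technical spread. In whole lung, fewer dividing cells and less RNA per cell cannot be told apart. Markers of lung cells were present: all 7 measured epithelial genes and all 10 endothelial genes were tested on A.

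Several arrays stood apart or went against their labels. The Norm 1a array of the A type stands in the table of B arrays and was left out, which leaves 1 Norm array on A, and the fit assumes that it varied like the other groups. Over 1161 genes on both A and B, the deviations of the A array labelled Norm 1b correlated with those of the B array of 4 d 1a (r = 0.184) and not with those of its own label (r = 0.00357). The A array labelled 4 d 1a in turn matched the B array of Norm 1a (r = 0.113) above its own label (r = -0.0437), and the C arrays gave the same best matches (r = 0.166 and r = 0.0847). The A array labelled 6 d 1b matched the B array of 2 d 1b (r = 0.12) above its own label (r = 0.042). On C its own label was its best match (r = 0.0702). These are correlations across genes, which are not independent replicates. The A array of 4 d 1b had the lowest mean Spearman correlation with the other A arrays, 0.901 against 0.934 to 0.949. At 2 d the ratio of 3' to 5' Gapdh probe sets, a sign of RNA quality, was 3.64 to 4.6, against 0.786 to 1.68 on the other arrays. Medians that rest on the array labelled 4 d 1a, and their counts of genes higher or lower against Norm or 10 h, are given with and without it. The only Norm array on A cannot be left out of a comparison with Norm, and 10 h is set beside it as another reference.

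On the A arrays the mitotic genes stood lowest at Norm and 10 h, in between at 2 d and highest at 6 d and on the array labelled 4 d 1a. With 1 probe set per gene and each gene's log2 intensity taken as its deviation from the mean of the 5 group means, the median of 30 genes was -0.31 on the Norm array, -0.22 and -0.31 at 10 h, -0.05 and 0.01 at 2 d, 0.64 and -0.10 on the arrays labelled 4 d 1a and 4 d 1b, and 0.33 and 0.43 at 6 d. The 6 d arrays lay above every Norm, 10 h and 2 d array, and the 4 d pair lay further apart than any other pair. Within 4 d, 1a read above 1b in 25 of 30 genes with a median difference of 0.73, while 45.5% of all 6271 genes tested on A did so. The array labelled 4 d 1a was the highest of the 9 A arrays for 19 of the 30 genes, 6 d 1b for 5 and 6 d 1a for 2. Over the 43 member probe sets, tested or not, 17 lay above the floor on the Norm array, 20 and 19 at 10 h, 26 and 30 at 2 d, 33 and 24 at 4 d, and 33 and 32 at 6 d.

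**Figure D1:**
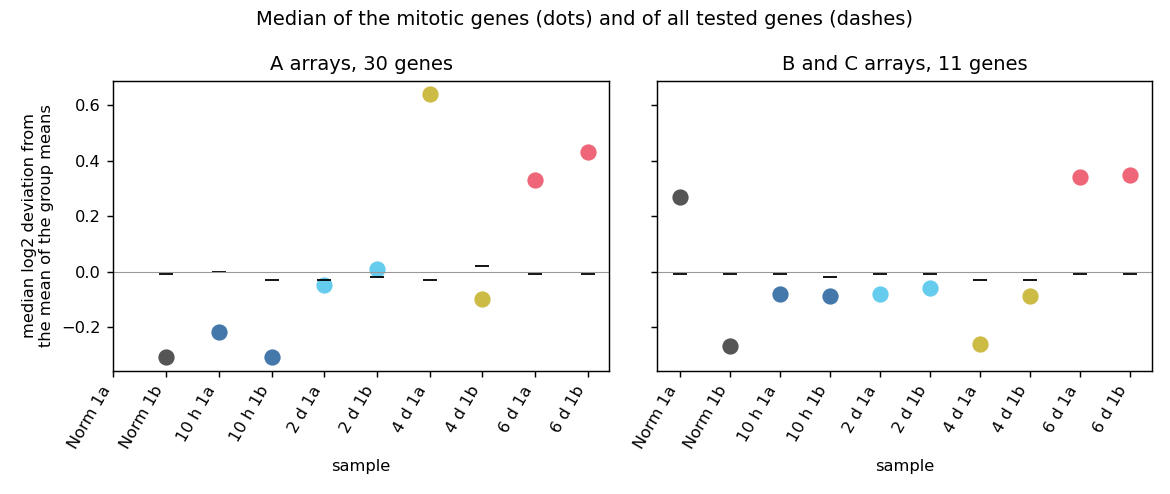
Each dot is the median log2 deviation of the tested mitotic genes on 1 sample, in the order Norm, 10 h, 2 d, 4 d, 6 d, and each dash is the median of all genes tested on that array set; no A array of Norm 1a was used. On A the dots run from -0.31 at Norm to 0.43 at 6 d 1b and 0.64 on the array labelled 4 d 1a, and on B and C they are high for Norm 1a and both 6 d samples.

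Against Norm, the median log2 change of the 30 genes on A was 0.00 at 10 h, 0.28 at 2 d, 0.55 at 4 d and 0.78 at 6 d, while the medians of all genes tested lay between 0.00 and 0.01. At 6 d 28 of the 30 genes read higher than Norm and 2 lower, at 4 d 28 and 1, at 2 d 26 and 1, and at 10 h 13 and 7. The direction at 6 d depends on which of the arrays with doubted labels stands for the reference: the mean of the 6 d arrays minus the array labelled Norm 1b was higher in 28 genes, with a median of 0.78, and minus the array labelled 4 d 1a it was lower in 26 and higher in 4, with a median of -0.29. Over all genes both medians were 0.01. These 30 genes are those that passed the filter on low values, and 16 of them lay at the floor on the only Norm array, so that their changes at 6 d are lower bounds. With no filter the median at 6 d was 0.516. Against 10 h, whose arrays matched their own group, 29 of 30 genes read higher at 6 d with a median of 0.66, an alternative chosen after the data were seen. The value at 4 d rested on the array labelled 4 d 1a, without which the median was 0.22, with 19 genes higher and 2 lower, and without 4 d 1b it was 0.955. The A arrays of 2 d and 6 d belong to 1 run of accession numbers, and within it 6 d minus 2 d gave a median of 0.34, with 26 genes higher and 4 lower. Those of Norm, 10 h and 4 d belong to another run. A comparison of 2 d or 6 d with Norm or 10 h thus crosses runs, and run and time cannot be told apart in it. Within the other run 4 d minus 10 h gave a median of 0.55, with 28 genes higher and 1 lower. Without the array labelled 4 d 1a it was 0.17, with 18 higher and 6 lower.

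On B and C, where 11 of the genes were tested, both 6 d samples and Norm 1a stood high. The median deviation was 0.27 for Norm 1a and -0.27 for Norm 1b, -0.08 and -0.09 at 10 h, -0.08 and -0.06 at 2 d, -0.26 and -0.09 at 4 d, and 0.34 and 0.35 at 6 d. Norm 1a read above Norm 1b in 10 of the 11 genes, with a median difference of 0.53, so the 2 Norm samples covered most of the range seen over all B and C samples. The median change against Norm was accordingly -0.16 at 10 h, -0.11 at 2 d, -0.19 at 4 d and 0.15 at 6 d, and without Norm 1a it was 0.08, 0, 0 and 0.26. Without Norm 1b it was -0.41, -0.22, -0.53 and 0.04. Against 10 h, 8 of 11 genes read higher at 6 d, with a median of 0.23. This comparison too crosses runs of accession numbers, as do those of 2 d and 6 d with Norm.

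No member probe set passed an adjusted p of 0.05 in any of the 5 comparisons (limma, Benjamini-Hochberg over 25801 probe sets of all 3 types). The share of all tested probe sets that passed was 0% at 10 h, 1.86% at 2 d, 0.00775% at 4 d, 0% at 6 d and 0.0155% for late (4 d and 6 d) minus early (10 h and 2 d). The smallest adjusted p of a member was 0.736 at 10 h (Tpx2), 0.0737 at 2 d (Incenp on C), 0.568 at 4 d (Smc2), 0.347 at 6 d (Incenp and Smc2 on A) and 0.184 for late minus early (Smc2). At an unadjusted p under 0.05, the members higher on A were 0 of 34 at 10 h, where the share of all A probe sets was 2.4%, 2 at 2 d against 5.35%, 7 at 4 d against 2.22%, and 11 at 6 d against 3.12%. Late minus early gave 16 of 34, against 5.28%. Without the array labelled 4 d 1a the counts were 5 at 4 d against 9.68% and 14 for late minus early against 12.2%. With 10 h in place of Norm, 14 of 34 were higher at 6 d, against 5.96%. On B and C the members higher were 0 of 17 at 10 h against 3.61%, 2 at 2 d against 10.8%, 0 at 4 d against 3.3%, 2 at 6 d against 4.93% and 1 for late minus early against 5.75%. 1 member probe set read lower at that level at 10 h (Tpx2) and 1 for late minus early (Incenp), both on B.

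Separation of the groups was also counted on the arrays themselves. Both 6 d arrays lay above both 10 h arrays for 28 of 34 member probe sets on A, where 24.8% of all did so, and for 8 of 17 on B and C, where 20.5% did. These are probe sets that passed the filter on low values. Aurka and Aurkb passed it on A only through the array labelled 4 d 1a and the 6 d arrays, which fixed their order. On the 10 h A arrays 46.5% and 44.2% of member probe sets lay above the floor, against 59.3% and 58.9% of all. All 4 late arrays lay above all 4 early arrays for 8 of 34 on A, against 1.73%, namely those of Anln, Cdc20, Kif20a, Kif4, Smc2 and Smc4 and both of Incenp. Leaving out the array labelled 4 d 1a could only keep or raise this count, for members and all probe sets alike. The count therefore cannot show how much rests on that array. Without that array the late minus early log2 change was 0.73 for Smc2, 0.72 for Anln, 0.83 for Prc1, 0.61 for Kif20a, 0.52 for Cdc20 and 0.39 for Ccnb2, where all arrays gave 0.86, 0.95, 1.18, 0.82, 0.79 and 0.59. On B and C none of 17 had all 4 late arrays above all 4 early ones, against 1.99%.

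**Figure D2:**
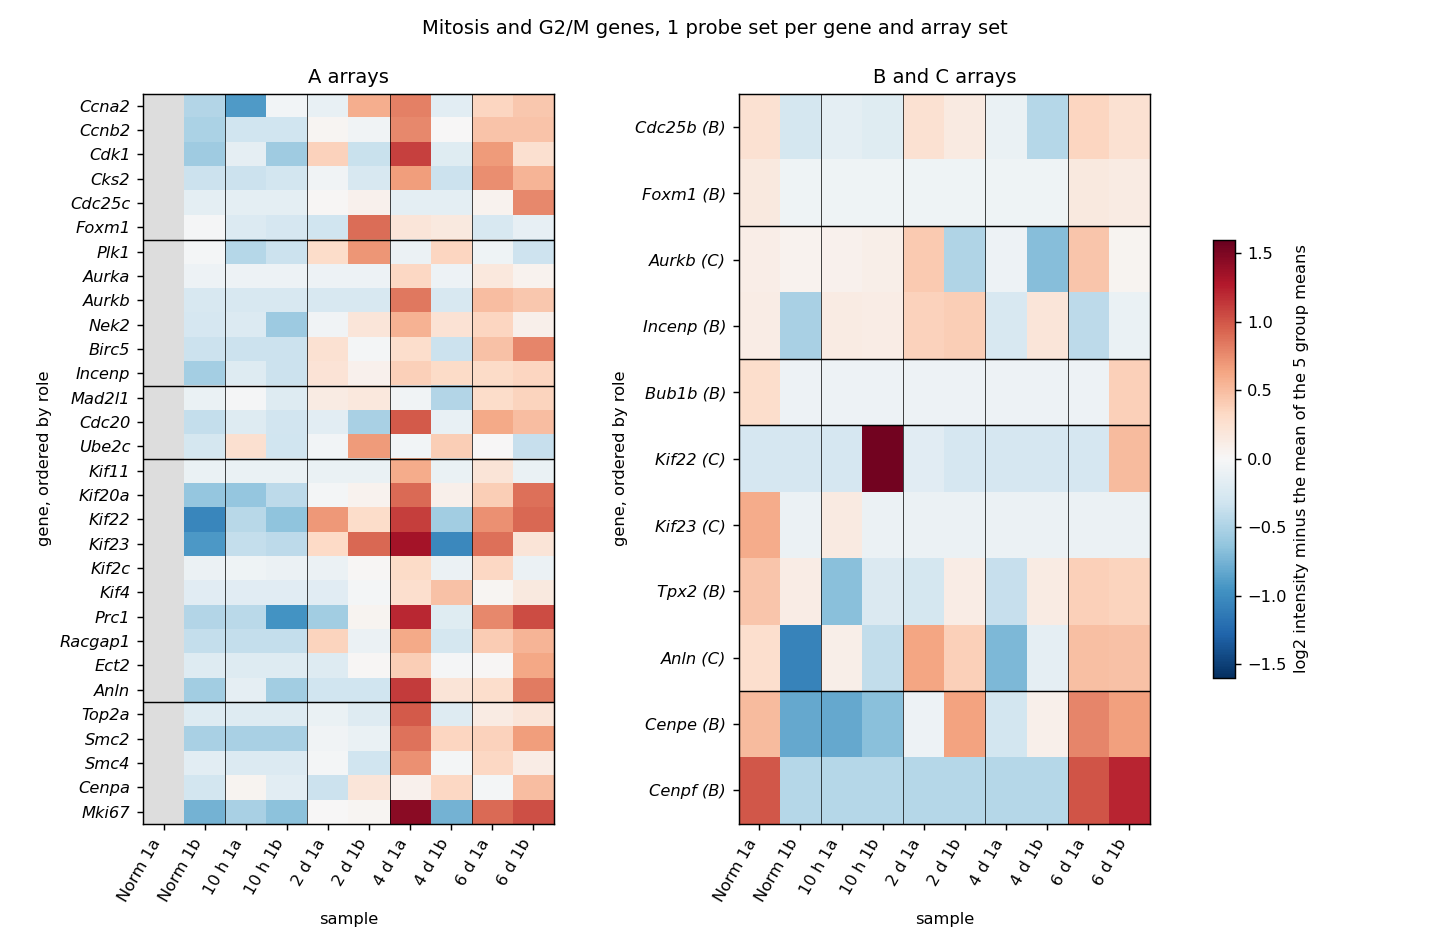
Colour gives the log2 intensity of each gene on each sample minus the mean of its 5 group means, with red high, blue low and grey for the A array not used; black lines part the 5 roles. On A red is densest in the column labelled 4 d 1a and in the 6 d columns, and on B and C Cenpf and Cenpe are red in Norm 1a and both 6 d columns.

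Since these genes stood high and low on the same A arrays, their promoters are shown for the elements known to serve late cell cycle genes. RefSeq promoters (mouse build GRCm38.p6, 250 bases before to 50 after the annotated start) were at hand for 32 of the 40 genes, but not for Ccna2, Cdc25c, Foxm1, Aurkb, Incenp, Kif20a, Tpx2 and Smc4. The CHR was searched as TTTGAA and the CCAAT box as CCAAT, on both strands. Matches of both can share 1 base at an end. Smc2, Prc1 and Ccnb2 had the smallest p-values, taken for each gene as its lowest over the 5 comparisons, of the genes whose bases before the start hold a match, and Cdk1 was added after its letters were seen. Below are their 250 bases before the start, on the strand of the gene, with matches in capitals (a CCAAT box on the other strand reads ATTGG, a CHR TTCAAA). The stretches are chr4:52438971-52439220 (plus strand) for Smc2, chr7:80294201-80294450 (plus) for Prc1, chr9:70421555-70421804 (minus) for Ccnb2 and chr10:69352913-69353162 (minus) for Cdk1.
Smc2: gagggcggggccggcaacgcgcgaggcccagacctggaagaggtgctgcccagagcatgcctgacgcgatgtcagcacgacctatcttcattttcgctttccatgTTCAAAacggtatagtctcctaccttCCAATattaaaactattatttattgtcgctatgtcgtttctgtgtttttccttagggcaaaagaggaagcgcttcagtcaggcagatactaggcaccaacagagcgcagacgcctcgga
Prc1: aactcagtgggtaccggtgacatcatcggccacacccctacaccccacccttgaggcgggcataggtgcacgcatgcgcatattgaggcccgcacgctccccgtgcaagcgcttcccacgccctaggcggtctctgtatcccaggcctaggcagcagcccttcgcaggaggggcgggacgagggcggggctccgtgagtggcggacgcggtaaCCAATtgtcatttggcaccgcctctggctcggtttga
Ccnb2: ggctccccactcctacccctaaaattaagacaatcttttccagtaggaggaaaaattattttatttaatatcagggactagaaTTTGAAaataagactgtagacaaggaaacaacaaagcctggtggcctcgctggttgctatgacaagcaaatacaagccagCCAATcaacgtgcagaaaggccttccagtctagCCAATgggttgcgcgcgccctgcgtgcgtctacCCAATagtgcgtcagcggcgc
Cdk1: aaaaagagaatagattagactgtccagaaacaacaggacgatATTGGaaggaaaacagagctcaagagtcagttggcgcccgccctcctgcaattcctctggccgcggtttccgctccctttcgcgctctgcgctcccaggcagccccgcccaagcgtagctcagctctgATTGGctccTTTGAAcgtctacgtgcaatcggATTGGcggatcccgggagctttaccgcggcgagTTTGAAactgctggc

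In Smc2 a CHR begins at position -145 and the CCAAT box at -119, counted from the start, and another CHR lies at 27 after it. Prc1 has a CCAAT box at -37 and a CHR that begins at -5 and crosses the start, so it is not in the printed stretch. Ccnb2 carries CCAAT boxes at -87, -54 and -21, the row of evenly spaced boxes known from B-type cyclins, with a CHR at -167 and another at position 5 after the start. In Cdk1 CHR matches lie at -71 and -15 and CCAAT boxes at -208, -80 and -48. Anln, by contrast, held no match before the start, and its CHR matches begin at 22 and 29 after it. A CHR was found in 24 of the 32 promoters (75%), against 18.1% of all 27025 promoters of this length. A CCAAT box was found in 28 (87.5%) against 37.9%, at least 2 of them in 19 (59.4%) against 12.2%, and both elements in 22 (68.8%) against 7.12%. Birc5 and Mad2l1 held neither within this window. A match is a run of letters and was not tied to the intensities, and the genes were listed by their known role, not by their sequence.

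**Figure D3:**
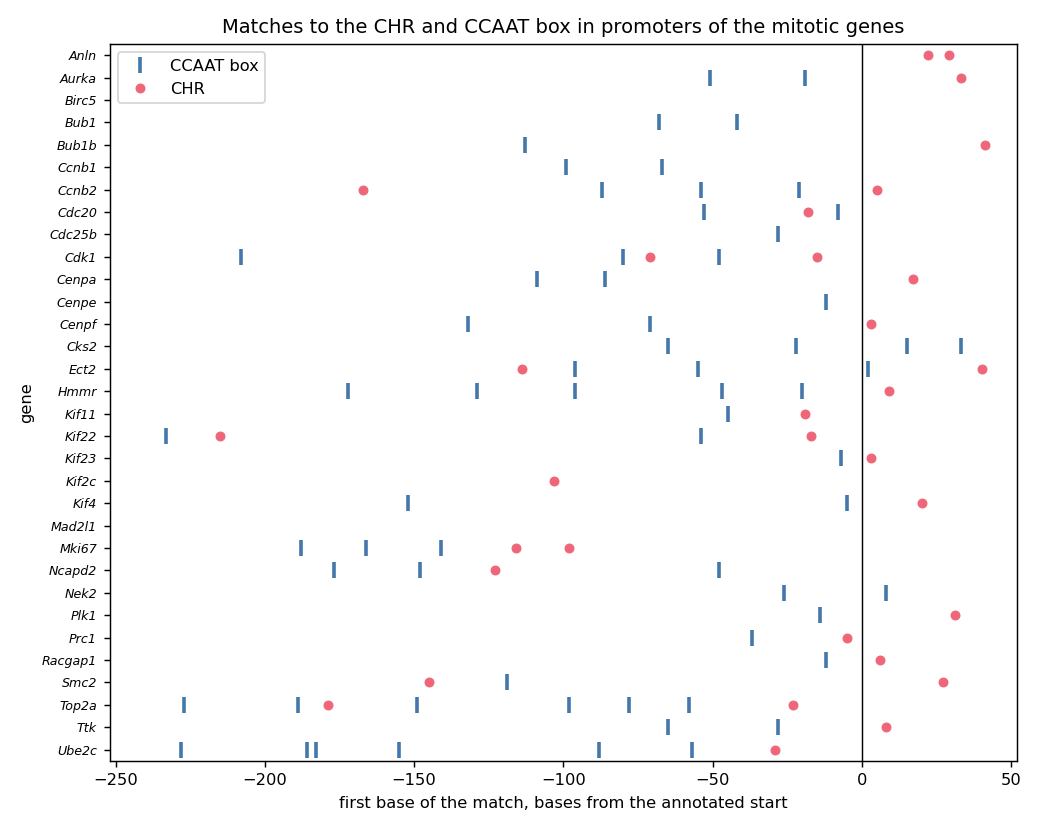
Each row is 1 of the 32 promoters, the horizontal axis is the distance in bases of the first base of a match from the annotated start (vertical line), blue ticks are CCAAT boxes and red dots CHR matches. Most CCAAT boxes lie before the start, and CHR matches lie on either side of it.

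Among the cyclins and their partners on A, Ccnb2, a B-type cyclin that activates CDK1, read 923 on the Norm array, 1055 and 1054 at 10 h, 1346 and 1273 at 2 d, 2248 and 1321 at 4 d, and 1804 and 1806 at 6 d. Both 6 d arrays lay above every Norm, 10 h and 2 d array, and 4 d 1b lay within the 2 d pair. The log2 change was 0.97 ± 0.29 (SE) at 6 d (adjusted p = 0.357) and 0.59 ± 0.17 for late minus early (adjusted p = 0.292). The kinase gene Cdk1 was at the floor at Norm (204) and read 561 and 419 at 6 d, at least 2.05-fold higher (adjusted p = 0.632), but its 10 h arrays read 317 and 67.5. Cks2, a small subunit of the CDK1 complex, read 224 at Norm and 498 and 432 at 6 d, and Ccna2, the A-type cyclin of S and G2 phase, 598 at Norm and 1054 and 1124 at 6 d, where the 2 d array 1b read 1247. Of the 6 genes of this role tested on A, 5 read higher than Norm at 6 d and 1 lower. The exception was Foxm1, the forkhead factor that drives late cell cycle transcription: its tested A probe set read 1553 at Norm, 1347 and 1305 at 10 h, 1262 and 2916 at 2 d, 1795 and 1759 at 4 d, and 1312 and 1434 at 6 d, with 1 of the 2 d arrays far above all others. A second A probe set of Foxm1 lay under the floor on all 9 arrays (23.4 to 64.3). On B a different probe set of Foxm1 was above the floor on 3 arrays alone, Norm 1a (347) and both 6 d arrays (347 and 342). Cdc25b, a phosphatase that activates CDK1, read 1508 and 1047 at Norm and 1610 and 1498 at 6 d on B, so the groups overlapped, with 921 and 1179 at 4 d (log2 change at 6 d 0.31 ± 0.21, adjusted p = 0.728). Cdc25c was at the floor on the Norm, 10 h and 4 d arrays and read 265 and 274 at 2 d and 272 and 445 at 6 d. That probe set is of a class shared among related transcripts. A second A probe set of Cdc25c lay under the floor on all 9 arrays (8.86 to 123).

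The chromosomal passenger complex corrects the attachment of chromosomes to the spindle, and its subunits include the kinase AURKB, INCENP and survivin, the product of Birc5. Birc5 read 117 on the Norm A array, 108 and 128 at 10 h, 353 and 291 at 2 d, 364 and 46.0 at 4 d, and 412 and 517 at 6 d. Norm, 10 h and 4 d 1b thus lay under the floor and both 2 d and both 6 d arrays above it, at least 1.96-fold above Norm at 6 d (adjusted p = 0.383). Aurkb was over the floor on 3 A arrays, that labelled 4 d 1a (505) and the 6 d arrays (394 and 377), and read 58.6 to 155 on the other 6. On C its other probe set read 409 and 396 at Norm and 514 and 390 at 6 d, which overlapped, and that probe set is of a class shared among related transcripts. Incenp was measured by 5 tested probe sets that disagreed. On A 1 read 236 at Norm, 297 and 270 at 10 h, 398 and 359 at 2 d, 446 and 423 at 4 d, and 422 and 433 at 6 d (late minus early 0.40 ± 0.14, adjusted p = 0.364), with every late array above every early one. On B the brightest read 3406 and 2179 at Norm, 3426 and 3387 at 10 h, 4053 and 4084 at 2 d, 2616 and 3588 at 4 d, and 2342 and 2899 at 6 d, lower late than early by a log2 change of -0.40 ± 0.16 (adjusted p = 0.414). A C probe set was highest at 2 d, with 4422 and 4341 against 3097 and 1995 at Norm (log2 change 0.82, adjusted p = 0.0737). Without Norm 1a that change was 1.14, from the 1 remaining Norm array.

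Of the other mitotic kinases, Plk1, which acts at spindle poles and kinetochores, gave different orders by probe set. Its representative A probe set read 765 at Norm, 573 and 618 at 10 h, 953 and 1276 at 2 d, 736 and 998 at 4 d, and 744 and 624 at 6 d. The 6 d arrays lay below Norm and both 2 d arrays above it, a log2 change of 0.53 ± 0.31 at 2 d (adjusted p = 0.41) and -0.17 ± 0.31 at 6 d (adjusted p = 0.943). Another Plk1 probe set read 316 at Norm, 490 and 346 at 10 h, 405 and 607 at 2 d, 623 and 412 at 4 d, and 572 and 509 at 6 d, all above Norm. Aurka, the spindle pole kinase, was over the floor on the array labelled 4 d 1a (314) and at 6 d (279 and 259) and under it on the other 6 A arrays. Nek2, a centrosome kinase, read 619 at Norm, 499 and 639 at 10 h, 720 and 849 at 2 d, 1099 and 874 at 4 d, and 945 and 789 at 6 d. Of 6 genes of this role on A, 5 read higher at 6 d than Norm and Plk1 lower.

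The spindle checkpoint holds APC/C back until all chromosomes are attached, and CDC20 is the APC/C activator it restrains. Cdc20 read 609 at Norm, 684 and 639 at 10 h, 705 and 551 at 2 d, 1565 and 730 at 4 d, and 1199 and 1112 at 6 d. All late arrays lay above all early ones, although 4 d 1b (730) passed 2 d 1a (705) narrowly (late minus early 0.79 ± 0.24, adjusted p = 0.313). Ube2c, the ubiquitin-conjugating enzyme of APC/C, read 324 at Norm and 396 and 305 at 6 d on a probe set whose suffix marks an incomplete set of probes, and Mad2l1, a checkpoint protein, read 362 at Norm and 475 and 499 at 6 d. The checkpoint kinase gene Bub1b was over the floor on B at Norm 1a (385) and 6 d 1b (411) and under it on the other 8 B arrays, 54.2 and 42.2 on 2 d 1b and 4 d 1a. Ttk, another checkpoint kinase, was over the A floor on 6 d 1b alone (334).

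Kinesins are motors that move along microtubules, and Kif22 codes for one that pushes chromosome arms. It read 413 on the Norm A array, 628 and 545 at 10 h, 1383 and 1046 at 2 d, 1838 and 580 at 4 d, and 1422 and 1621 at 6 d. Every 2 d and 6 d array lay above every Norm and 10 h array, and 4 d 1b lay between the 10 h arrays. The log2 change was 1.54 ± 0.56 at 2 d (adjusted p = 0.188) and 1.88 ± 0.56 at 6 d (adjusted p = 0.36), from a probe set with an incomplete set of probes. Its C probe set, of the same class, was at the floor at Norm and read 702 on 10 h 1b alone and 346 on 6 d 1b. Kif20a, a kinesin of cytokinesis, read 152 at Norm, 58.1 and 271 at 10 h, 354 and 376 at 2 d, 678 and 383 at 4 d, and 473 and 668 at 6 d. This probe set is of a class shared among related transcripts. A second A probe set of Kif20a lay under the floor on all 9 arrays (7.94 to 184). On the first, all late arrays lay above all early ones, and 6 d was at least 2.38-fold above Norm (adjusted p = 0.368). Kif4, a chromosome-bound kinesin, showed the same order with lower values, 213 at Norm and 273 to 370 on the late arrays.

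Kif23, whose product joins RACGAP1 in the centralspindlin complex at the cell's midzone, read 256 at Norm, 369 and 362 at 10 h, 602 and 911 at 2 d, 1222 and 79.4 at 4 d, and 895 and 556 at 6 d. Its 4 d arrays were the highest and the lowest of all 9. On C its representative probe set was over the floor at Norm 1a (325) and 10 h 1a (238) alone, and a second one read 554 and 116 at Norm and 758 and 555 at 6 d. Racgap1 itself read 125 at Norm, 202 and 163 at 10 h, 394 and 288 at 2 d, 469 and 253 at 4 d, and 407 and 448 at 6 d, so that Norm and 10 h lay under the floor and the rest above it. Ect2, which RACGAP1 recruits to start the cleavage furrow, was under the floor at Norm and 10 h and read 275 and 415 at 6 d. Prc1, which bundles midzone microtubules, read 330 at Norm, 338 and 53.9 at 10 h, 311 and 468 at 2 d, 1054 and 398 at 4 d, and 774 and 933 at 6 d. Its 6 d arrays and that labelled 4 d 1a lay above all others, with a late minus early change of 1.18 ± 0.32 (adjusted p = 0.286).

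Anln codes for anillin, the scaffold of the contractile ring. On A it read 182 at Norm, 313 and 137 at 10 h, 276 and 276 at 2 d, 747 and 399 at 4 d, and 423 and 616 at 6 d, with every late array above every early one (0.95 ± 0.24, adjusted p = 0.257). On C it read 825 and 328 at Norm, 732 and 524 at 10 h, 1057 and 892 at 2 d, 418 and 624 at 4 d, and 953 and 952 at 6 d. There the 4 d arrays were low and the late minus early change was -0.15 ± 0.33 (adjusted p = 0.901). Tpx2, which activates AURKA on spindle microtubules, read 799 and 639 at Norm on B, 369 and 499 at 10 h, 480 and 639 at 2 d, 454 and 643 at 4 d, and 764 and 747 at 6 d. Both 10 h arrays lay below both Norm arrays (-0.74 ± 0.28, adjusted p = 0.736), and the 6 d arrays lay between the Norm ones. A second B probe set of Tpx2 read 697 at Norm 1a and 30.2 at Norm 1b. On A all 10 genes of the spindle and cytokinesis read higher at 6 d than Norm, and on B and C 3 of 4 did. The remaining Kif11 and Kif2c, a motor that parts the spindle poles and a microtubule depolymerase, had 1 of their 6 d arrays under the floor. Kif11 read 293 and 91.1 and Kif2c 315 and 169, against 84.0 and 157 at Norm.

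Condensins fold chromosomes for mitosis, and Smc2 and Smc4 code for the core of both condensins. Smc2 had the smallest p on A: it read 201 at Norm, 199 and 212 at 10 h, 324 and 315 at 2 d, 618 and 427 at 4 d, and 436 and 539 at 6 d. Norm and 10 h lay under the floor, both 2 d arrays just above it and all 4 late arrays higher still, at least 2.05-fold above Norm at 6 d. The late minus early change was 0.86 ± 0.17 (adjusted p = 0.184, unadjusted p = 0.000924). Smc4 read 1353 at Norm, 1312 and 1310 at 10 h, 1484 and 1227 at 2 d, 2519 and 1485 at 4 d, and 1905 and 1656 at 6 d, where 4 d 1b exceeded 2 d 1a by a hair. The 4 other Smc2 probe sets, on B and C, were not tested.

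Mki67, whose product Ki-67 coats mitotic chromosomes and is the usual stain for dividing cells, read 126 at Norm, 276 and 252 at 10 h, 400 and 404 at 2 d, 1084 and 89.2 at 4 d, and 744 and 811 at 6 d. The 6 d arrays and that labelled 4 d 1a stood above all others and 4 d 1b was the lowest of all 9, at least 3.29-fold above Norm at 6 d (adjusted p = 0.511). A second Mki67 probe set, with an incomplete set of probes, read 260 at Norm and 346 and 376 at 6 d. Top2a, the topoisomerase that untangles sister chromatids, read 68.5 at Norm, 149 and 160 at 10 h, 252 and 97.1 at 2 d, 536 and 172 at 4 d, and 299 and 310 at 6 d. Cenpa, the histone variant of centromeres, read 297 at Norm, 374 and 321 at 10 h, 286 and 413 at 2 d, 380 and 455 at 4 d, and 356 and 509 at 6 d, and the 6 d arrays lay above Norm but overlapped the 10 h, 2 d and 4 d pairs (0.52 ± 0.35 at 6 d, adjusted p = 0.723).

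Kinetochore genes on B split the Norm samples. Cenpf, a kinetochore protein made in G2, read 812 and 300 at Norm, 52.2 and 49.2 at 10 h, 218 and 97.2 at 2 d, 212 and 49.2 at 4 d, and 828 and 955 at 6 d. Norm 1a and both 6 d arrays stood far above the floor, Norm 1b close to it, and the 6 arrays of 10 h, 2 d and 4 d under it. At 6 d Cenpf was at least 2.99-fold above 10 h (adjusted p = 0.134), and the change against Norm was 0.85 ± 0.37 (adjusted p = 0.535). Leaving out Norm 1a or Norm 1b left the log2 change against 10 h at 1.58, since no Norm array enters it. Only the estimate of spread, which includes the wide Norm pair, then changed. Against Norm, Cenpf changed by 1.57 at 6 d without Norm 1a, and in the other direction, by -1.45, at 2 d without Norm 1b. Cenpe, a kinesin that carries chromosomes to the spindle equator, read 748 and 247 at Norm, 211 and 332 at 10 h, 499 and 825 at 2 d, 432 and 561 at 4 d, and 911 and 829 at 6 d. Its 6 d arrays were above all others, with a change of 0.88 ± 0.42 against Norm (adjusted p = 0.58), which was 1.55 without Norm 1a and 0.22 without Norm 1b.

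**Figure D4:**
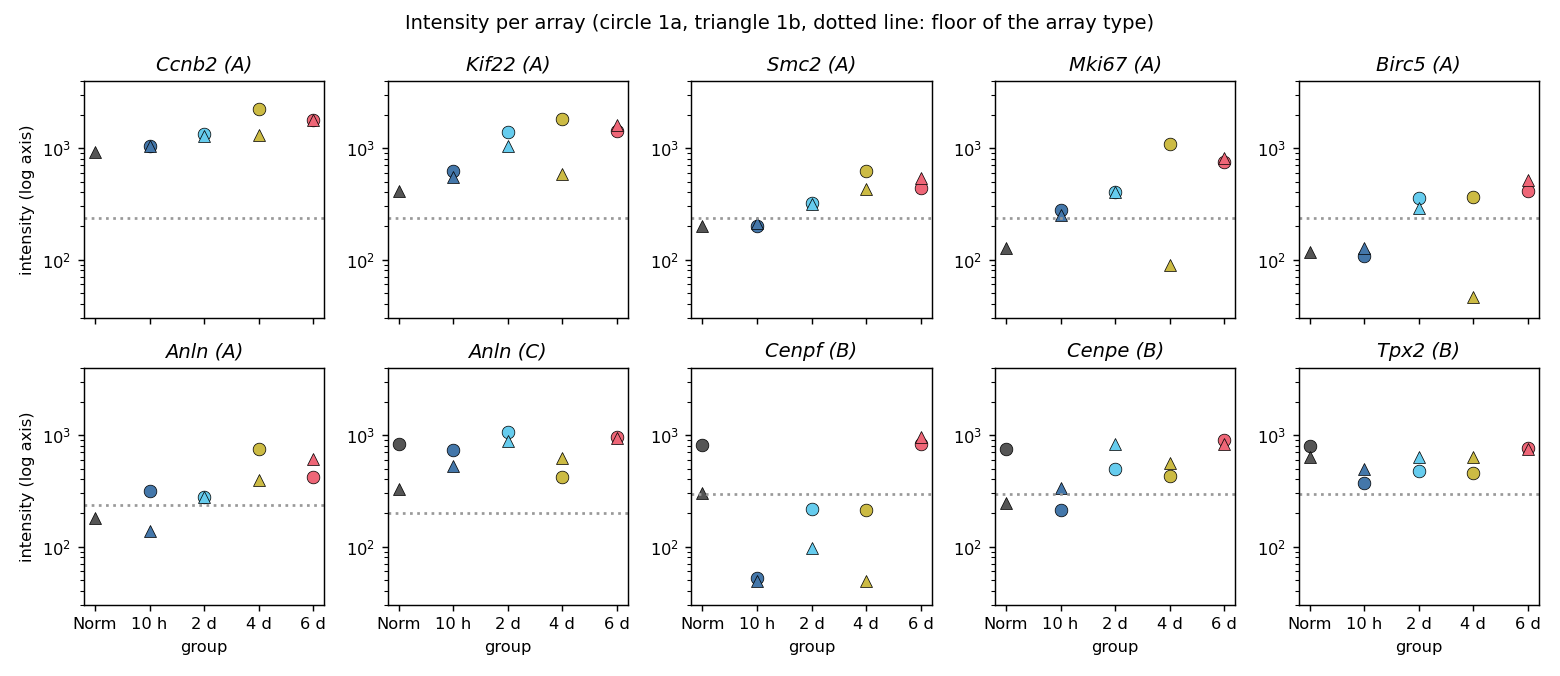
Each panel gives the linear intensity on a log axis of 1 gene (array type in brackets) on every array used, by group, with circles for 1a, triangles for 1b and a dotted line for the floor of that array type. The panels were picked by hand, and genes not high at 6 d, such as Foxm1 and Plk1 on A, Incenp on B and Kif23 on C, are not shown. In the panels picked, the 6 d symbols are high. The 4 d pair is wide apart for Mki67, Birc5 and Kif22, and the Norm pair for Anln on C and for Cenpf and Cenpe on B.

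6 genes were tested on A and again on B or C, with different probe sets. At 6 d minus Norm, Anln gave 1.11 ± 0.42 on A and 0.87 ± 0.47 on C (1.54 without Norm 1a, 0.21 without Norm 1b), and Aurkb 0.71 ± 0.38 and 0.15 ± 0.43. Kif22 gave 1.88 ± 0.56 and 0.39 ± 0.49, and Kif23 1.46 ± 0.81 and -0.35 ± 0.22. Incenp gave 0.86 ± 0.25 on A and -0.06 ± 0.23 on B, and Foxm1 -0.18 ± 0.40 and 0.10 ± 0.11. The sign was the same in 3 of the 6 genes, and the A value was the higher in 5. This tally depends on the probe set chosen. The B or C probe set used was above the floor on 3 of 10 arrays for Foxm1 and Kif22 and on 2 for Kif23. The other C probe set of Kif23 gave 0.96 ± 0.56. Of the other Incenp probe sets, that on C gave 0.51 ± 0.20 and that on B -0.22 ± 0.21. Differences between probe sets were not tested.

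**Figure D5:**
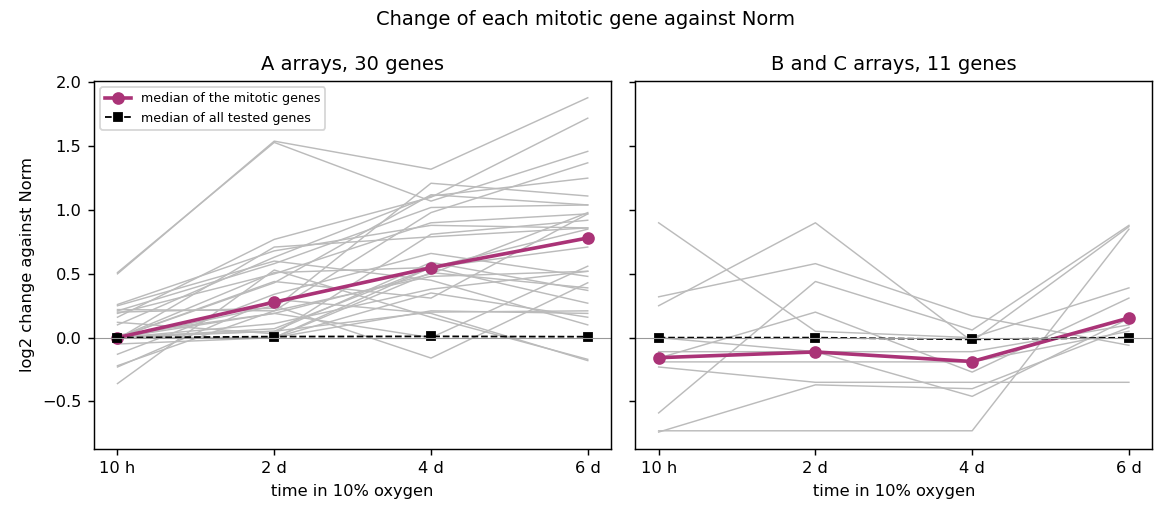
Grey lines join the log2 change against Norm of each tested gene at the 4 times in 10% oxygen, the thick line is their median and the dashed line the median of all genes tested. On A the medians are 0.00, 0.28, 0.55 and 0.78, the value at 4 d being 0.22 without the array labelled 4 d 1a, and on B and C -0.16, -0.11, -0.19 and 0.15.

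Lists of neighbouring cell cycle genes, written with earlier results of these data known, also held no gene that passed in the 5 comparisons. With 10 h in place of Norm, 1 of 34 S phase genes tested on A passed at 2 d: Rfc3, a subunit of the clamp loader (0.84, adjusted p = 0.0411). Of all genes tested, 233 of 6271 on A and 542 of 9028 on B and C passed there. This comparison crosses runs of accession numbers, and the 2 d arrays had the high Gapdh ratios. Of 34 genes of DNA replication and S phase tested on A, 28 read higher than Norm at 2 d, 27 at 4 d and 30 at 6 d, with medians of 0.29, 0.41 and 0.30. Their smallest p-values belonged at 4 d to Mcm3, a subunit of the replicative helicase (1.20 ± 0.32, adjusted p = 0.568), at 6 d to Lig1, the ligase that joins Okazaki fragments (1.59 ± 0.42, adjusted p = 0.319), and for late minus early to Rrm2, a subunit of ribonucleotide reductase (0.78 ± 0.16, adjusted p = 0.185). Of 27 other mitosis genes on A, 18 read higher at 2 d, 23 at 4 d and 19 at 6 d, among them Ckap2, a spindle protein, at 1.55 ± 0.45 at 6 d (adjusted p = 0.348). On B and C the lists read otherwise: of 23 other mitosis genes 10 read higher at 2 d, 7 at 4 d (median -0.11) and 11 at 6 d (median -0.02), and of 16 S phase genes 12, 8 and 12 did, with a median of 0.02 at 4 d. Among 19 genes of G1 cyclins, pocket proteins and CDK inhibitors on A, 13 read higher at 6 d. The leading one was Cdkn1a, the inhibitor p21, with 1.49 ± 0.31 at 10 h (adjusted p = 0.372), 1.07 at 2 d, 0.90 at 4 d and 1.02 at 6 d. Its largest value thus stood at 10 h, against the only Norm array on A, and a relation to the mitotic genes was not tested.

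Sums of the markers of other cell types varied between arrays. Such sums follow their brightest genes: of the erythroid ones, Hba-a1 alone read 13306 at Norm and 29409 and 42018 at 2 d on A. On A the summed intensity of 11 erythroid genes (Car1 and Epb42 at the floor) was 20344 at Norm, 12180 to 20026 at 10 h, 41213 to 53225 at 2 d, 21783 to 25114 at 4 d and 23347 to 41366 at 6 d. That of 8 thymocyte genes was 2680 at Norm and 2571 to 4241 at 6 d, with Ccr9, Cd8a, Ptcra and Rag2 at the floor on every A array. The sum of 10 lymphocyte genes (Cd3d, Cd3e and Cd3g at the floor) was 5082 at Norm and 3360 to 3435 at 6 d. The 9 macrophage genes (Itgam and Marco at the floor) summed to 27263 at Norm and 27405 to 32611 at 6 d, the 10 endothelial genes to 60749 and 54337 to 56575, and the 10 mesenchymal genes to 43809 and 41241 to 45960. Epithelial genes summed to 57192 at Norm and 68549 to 93753 at 6 d, and 13 muscle genes to 31989 and 16841 to 18664. The part of erythroid and other cells in the values of the mitotic genes was not tested.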

How the data were processed

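Whole mouse lung was measured on 30 Affymetrix MG-U74 version 2 arrays, and 29 were used. The authors deposited linear probe set intensities, whose processing software is not given in the sources used here; they were used as deposited, and their number limits the precision. Samples were grouped by title. 1 column of values, an A-titled array in the B table, was not used. A floor at the 40th percentile of each type (A 236.05, B 297.36, C 200.93) was applied before log2, and 8392, 8600 and 8809 probe sets above it on at least 2 arrays were tested. Changes against a group at the floor are lower bounds, hence "at least". Group means were compared, type by type, with limma (version 3.58.1, R version 4.3.3; lmFit and eBayes with trend, two-sided), with Benjamini-Hochberg adjustment over all 25801 probe sets. The scripts were tested on simulated data. Gene symbols and promoters came from supplied platform and RefSeq tables.

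The members and lists were chosen with earlier results of these data known. Named by rule were the 5 members of smallest p per comparison on A and on B and C (16 genes), genes tested on both array sets and up to 3 genes per other list and comparison; Mki67, Top2a and Birc5 were fixed markers. Other members were named after their values were seen. Each gene was represented by 1 probe set, plain suffix first, then the highest relative level. Alternatives were other scalings (quantile, median), floors, filters and spread models, adjustment within each array type, only the groups compared, a replicate block, leaving out each sample and 10 h in place of Norm.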

Additional observations from a re-analysis of the deposited data

How the results depend on the processing

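The number of arrays, 1 or 2 per group, and the floor limit what can be seen. In the comparisons with Norm and late minus early, the count of members past the threshold was 0 under the alternatives that kept every sample. Leaving out a Norm sample leaves 1 Norm array on B and C, so only changes are given for it. Without Norm 1a, Incenp on C changed by 1.14 at 2 d and Cenpf by 1.57 at 6 d. Without Norm 1b, Cenpf and the second Tpx2 probe set on B changed by -1.45 and -1.11 at 2 d. At 2 d minus 10 h, the log2 change of Foxm1 on A was 1.14 without 2 d 1a, from the 1 remaining 2 d array. That of Incenp on C was 0.76 with Norm 1a or with Norm 1b left out. No Norm array enters this change, so only the estimate of spread moved. The leave-one-out medians on A ran from 0.22 to 0.955 at 4 d. On B and C they ran from -0.414 to 0.0802 at 10 h, from -0.222 to 0.0807 at 2 d and from -0.533 to 0 at 4 d. With the floor at the 20th percentile the medians were 0.584 at 2 d and 0.845 at 4 d on A, and -0.538, -0.368 and -0.464 at 10 h, 2 d and 4 d on B and C. Above the floor on at least 5 arrays, the 2 d median on B and C was 0.444. Within a run of accession numbers, 6 d minus 2 d gave 0.233 on B and C in place of the late minus early value of -0.00573. Cenpe at 10 h on B ran from -1.25 to 0.08, the latter without Norm 1a. The other 73 medians under full-sample alternatives moved by less than the pooled spread between arrays of a group. On A this limit is wide because of the 4 d pair (0.64 and -0.10). Within it, the 6 d median on A fell from 0.78 to 0.516 with no filter. 439 values of single genes kept their direction and side of the threshold. The letters 1a and 1b did not pair the samples (correlations between -0.158 and 0.134), and with a replicate block 0 members passed at 6 d and the A median was 0.668.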
